A study of Homo sapiens with 28 samples.

Results

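The secreted inflammatory signals CXCL1, CXCL2, CXCL3, CXCL5, CXCL8, CCL2, CCL20, IL6 and LIF were examined across 2 lung cancer lines exposed to 2 related nucleoside drugs. Members were the probe sets whose annotated symbol was 1 of these names. That gave 12 of the 19064 probe sets that name a single gene, and 9 of the 8024 genes tested. RNA came from A549 cells, an established line from a lung adenocarcinoma, and H1299 cells, an established line from a lymph node metastasis of a non-small cell lung cancer. Each line was given azacitidine or decitabine at 0.3, 1 or 3 µM for 48 h, with drug added to the medium every 24 h, and the control cells received the vehicle DMSO. No exposure time is labelled for the vehicle arrays. This made 14 groups with 2 arrays apiece, or 28 one-colour oligonucleotide arrays in all. Each line stands for 1 tumour. No label says that the 2 arrays of a group came from separate cultures, so p-values measure only the spread between these samples, which may be technical.

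Azacitidine is a cytidine analog with a ribose sugar and enters RNA as well as DNA. Decitabine lacks a hydroxyl group of that sugar, which makes it a deoxyribonucleoside that enters DNA. Once built into DNA, both bind DNA methyltransferases covalently. CXCL1, CXCL2, CXCL3, CXCL5 and CXCL8 are chemokines of a gene cluster on chromosome 4 that bind the receptor CXCR2 and draw in neutrophils. CCL2 binds CCR2 and attracts monocytes, and CCL20 binds CCR6 and attracts lymphocytes and immature dendritic cells. IL6 and LIF are cytokines that signal through the shared receptor chain IL6ST to STAT3. Airway epithelial cells transcribe many of these genes through NF-kB and AP-1, and their short-lived mRNAs are controlled by decay factors.

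The deposited values are MAS5 signals on a linear intensity scale. Every array had nearly the same 2% trimmed mean, from 500.125 to 500.159. The 25th percentile of the arrays lay between 18.0 and 28.2 and the median between 92.7 and 123. The A549 vehicle replicate 1 had the highest of both, and A549 azacitidine 3 µM replicate 1 came next. The array of A549 decitabine 3 µM replicate 1 is labelled a repeat. Results were recomputed without these 3 arrays together, and this ended 11 of the 104 calls below that could still be tested. The calls of CXCL3 could not, because the gene no longer passed the filter. The keratins KRT8 and KRT18, which mark epithelial cells, lay above the array median on all 28 arrays. In H1299, KRT7 and CDH1 lay above it on 0 of 14 arrays. The leukocyte marker PTPRC lay above it on 0 of 28 arrays, and 1 of 10 leukocyte markers on the array passed the median on at least 2 arrays. The summed signal of those 10 markers ranged from 260.4 to 399.7 in A549 and from 268.8 to 442.7 in H1299.

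Starts of 7 of the 9 genes were found in the RefSeq promoter table (build GRCh38.p14), which gives 250 bases before to 50 after each start. CCL2 and LIF had no entry. The bases just upstream of the start are printed because the chemokines that responded differently below carry closely related stretches there. Each line runs 5′ to 3′ on the gene's own strand over the 110 bases before the start, and capitals mark matches to the kappaB consensus on either strand.
CXCL1: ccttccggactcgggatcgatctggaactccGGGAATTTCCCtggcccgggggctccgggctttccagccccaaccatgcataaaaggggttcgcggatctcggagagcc
CXCL2: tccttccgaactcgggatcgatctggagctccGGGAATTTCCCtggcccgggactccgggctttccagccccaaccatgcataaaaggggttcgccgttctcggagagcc
CXCL3: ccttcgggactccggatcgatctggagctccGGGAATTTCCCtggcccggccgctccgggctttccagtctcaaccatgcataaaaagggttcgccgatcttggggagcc
CXCL5: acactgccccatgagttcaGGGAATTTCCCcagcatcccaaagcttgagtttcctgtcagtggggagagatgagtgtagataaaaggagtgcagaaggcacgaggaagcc
CXCL8: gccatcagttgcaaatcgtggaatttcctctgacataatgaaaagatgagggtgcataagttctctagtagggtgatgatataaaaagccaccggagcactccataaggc
CCL20: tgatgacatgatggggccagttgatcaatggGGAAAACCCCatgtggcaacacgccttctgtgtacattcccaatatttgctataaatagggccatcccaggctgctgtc
IL6: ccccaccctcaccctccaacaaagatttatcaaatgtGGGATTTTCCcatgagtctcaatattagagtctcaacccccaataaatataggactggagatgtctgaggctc
These stretches lie at chr4:73869283-73869392 (plus strand), chr4:74099196-74099305 (minus), chr4:74038690-74038799 (minus), chr4:73998678-73998787 (minus), chr4:73740459-73740568 (plus), chr2:227813732-227813841 (plus) and chr7:22727090-22727199 (plus). Each ends next to the annotated first exon, so none of the printed bases is transcribed from that start.

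A kappaB match was found in the windows of CXCL1, CXCL2, CXCL3, CXCL5, CCL20 and IL6, with first bases between positions -91 and -73 relative to the start. The same letters GGGAATTTCCC, in which 2 matches on opposite strands overlap, occurred in CXCL1, CXCL2, CXCL3 and CXCL5. CCL20 had its match on the opposite strand, and IL6 had a variant on its own strand. Of all 27305 promoter windows in the table, 10.8% held a kappaB match. The consensus searched was GGGRNNYYCC, where R is A or G, Y is C or T and N is any base. CXCL8 had no full match, but its printed stretch holds tggaatttcc, which differs from the consensus only in its first base. CXCL8 held the AP-1 motif TGANTCA on its own strand from position -137, outside the bases printed. That motif occurred in 7.8% of all windows on either strand. CXCL1, CXCL2 and CXCL3 shared a run of 23 bases around their matches, while CXCL1 and CXCL5 shared at most 11. The windows of CXCL1, CXCL2 and CXCL3 held 22, 22 and 24 CpG dinucleotides, the sites at which DNA is methylated. CXCL5 held 9, CXCL8 4, CCL20 3 and IL6 7, against a median of 14 and quartiles of 3 and 28 over all windows. Methylation was not measured on these arrays, and a match is a description of the letters only.

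**Figure D1:**
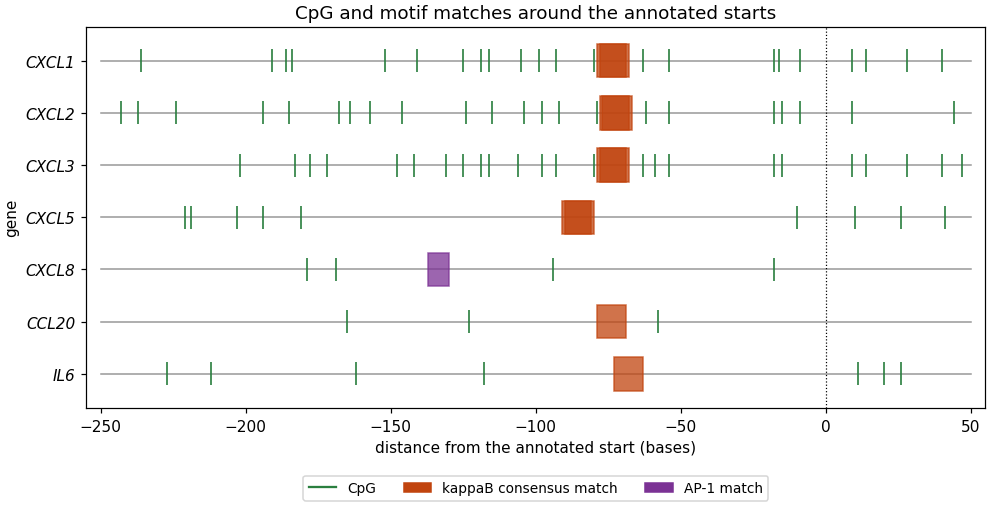
Map of the 300-base windows around the 7 annotated starts, with distance from the start in bases on the horizontal axis and 1 gene per row; green ticks are CpG dinucleotides, orange boxes kappaB matches and the purple box the AP-1 match. The kappaB boxes of 6 genes begin between -91 and -73, and CpG ticks are dense in CXCL1, CXCL2 and CXCL3 and sparse in CCL20 and CXCL8.

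In the vehicle arrays, 7 of the 9 genes were higher in A549 than in H1299 and none was lower past the threshold, where 65.3% of all tested genes differed between the lines. CXCL5 read 3288 and 3048 in A549 against 11.3 and 26.4 in H1299. CCL2 read 578 and 667 against 2.202 and 1.89, and LIF read 596 and 559 against 9.21 and 24.99. The lines did not overlap in any of these 3 genes, and the H1299 values were near or below the 25th percentile of the arrays. On the scale used for all tests, log2(signal + 32), the line difference was 5.99 for CXCL5 (SE 0.17), 4.26 for CCL2 (SE 0.17) and 3.65 for LIF (SE 0.19). Adding 32 draws the differences of such dim values toward 0. Smaller differences were 2.05 for CXCL8, 1.34 for CXCL1, 1.21 for IL6 and 1.11 for CXCL2, with adjusted p-values in limma from 3.31e-08 to 4.25e-05. CXCL3 differed by 0.23 (95% interval -0.22 to 0.67) and CCL20 by 0.24 (interval -0.21 to 0.69), and neither passed. CCL20 was dim in both lines, at 15.0 and 11.1 in A549 and 6.22 and 5.90 in H1299. Centring each array on its median moved the median line difference of all genes from -0.00252 to -0.154 and changed no call among these genes.

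Decitabine raised 5 of the 9 genes at every dose in H1299, and CCL20 at every dose and IL6 at 1 and 3 µM in A549. In A549 CCL2 was called lower at every dose of both drugs. Azacitidine there raised CXCL2 and CCL20 at 1 and 3 µM. At 3 µM it also raised IL6 and CXCL3 and lowered CXCL1. A call here is a Benjamini-Hochberg adjusted p of at most 0.05 over 8024 genes in limma. With azacitidine in A549, 1 gene was called at 0.3 µM, 3 at 1 µM and 6 at 3 µM, where 2.44%, 25.2% and 38.3% of all genes were called. With decitabine in A549 the counts were 2, 3 and 5, against 7.69%, 16.6% and 25.8% of all genes. In H1299, azacitidine gave 1, 2 and 1 calls, where 5.67%, 35.3% and 53.9% of all genes were called. Decitabine gave 5, 5 and 5 calls, all of them higher, against 17.8%, 23.4% and 30.9%. At 3 µM of azacitidine in H1299, the share of these genes called was thus below that of all genes. CCL2 and CCL20 lay under the 25th percentile there and with vehicle, so a fall was not detectable in them. The median change of the 9 genes was 1.21 with 3 µM of decitabine in H1299 and -0.14 with 3 µM of azacitidine, while the median of all genes was -0.0111 and 0.079. The 6 comparisons within a line share its 2 vehicle arrays. All 9 genes passed the filter on dim signal, but CXCL3 passed on 2 arrays, both of A549 with azacitidine, and CCL20 on 11 arrays, all with decitabine. The filter itself therefore favoured a difference in these 2 genes.

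**Figure D2:**
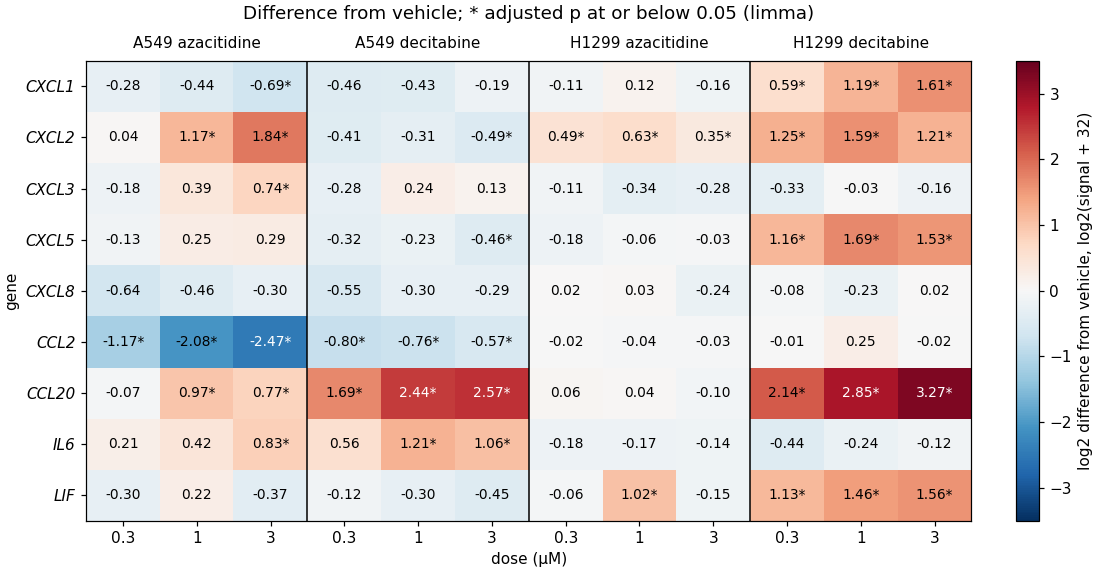
Heat map of the log2 difference from vehicle on log2(signal + 32), with the 9 genes as rows and the 3 doses (µM) of each drug in each line as columns; red is higher, blue lower, and an asterisk marks an adjusted p at or below 0.05 in limma. CCL20 is red in all 6 decitabine columns, CCL2 is blue in all 6 A549 columns, and CXCL1, CXCL5 and LIF are red with decitabine in H1299.

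Among the CXCR2 ligands, CXCL2 differed most between the drugs in A549, where CXCL1, CXCL3 and CXCL5 differed less at 3 µM. Its signal was 212 and 201 with vehicle, 225 and 203 at 0.3 µM of azacitidine, 503 and 509.5 at 1 µM and 737 and 925 at 3 µM. Arrays at 1 and 3 µM lay above every vehicle array, and those at 0.3 µM overlapped them. CXCL2 rose by 1.17 (SE 0.14, adjusted p = 4.67e-06) at 1 µM and rose by 1.85 (SE 0.14, adjusted p = 4.7e-09) at 3 µM. With decitabine the arrays read 140.0 and 155, 166 and 155 and 135 and 141 in order of dose, all below both vehicle arrays. Only the fall of 0.49 at 3 µM passed (adjusted p = 0.0157 in limma), and it lost its call without the 3 arrays named above (-0.43, adjusted p = 0.196), without vehicle replicate 1 (-0.46) and without decitabine 3 µM replicate 1 (-0.47).

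In H1299 the same gene rose with both drugs. Decitabine took CXCL2 from 76.0 and 81.3 to 256 and 206 at 0.3 µM, 332 and 271 at 1 µM and 245 and 204 at 3 µM. The rises of 1.25, 1.59 and 1.21 (SE 0.14 each) passed in limma with adjusted p-values from 4.97e-08 to 2.61e-06. Azacitidine gave 116 and 132, then 134 and 143, then 127.8 and 92.3. All 6 of these arrays were above both vehicle arrays, and the differences were 0.49, 0.63 and 0.35. The calls at 0.3 µM (adjusted p = 0.0481) and 3 µM (adjusted p = 0.0461) stood close to the threshold in limma and were lost in 25 and 21 of 39 alternatives. At 0.3 µM these include the fit without the 3 arrays (0.49, adjusted p = 0.0511) and those without any 1 of the 4 arrays compared. At 3 µM the value dropped to 0.17 without azacitidine replicate 1 (adjusted p = 0.442). That at 1 µM (adjusted p = 0.00189) was kept in every alternative run. The CXCL2 probe set is of the kind (_x_at) that may also bind transcripts of related genes, and CXCL1, CXCL2 and CXCL3 are close in sequence.

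CXCL1, the founding growth-regulated chemokine of this family, rose with decitabine in H1299 and fell with azacitidine in A549. In H1299 its signal was 59.1 and 50.9 with vehicle, 113 and 86.1 at 0.3 µM of decitabine, 169.6 and 164 at 1 µM and 239 and 229 at 3 µM. The groups did not overlap with vehicle, and each dose lay above the one below it. CXCL1 rose by 1.19 (SE 0.18, adjusted p = 6.06e-05) at 1 µM and rose by 1.61 (SE 0.18, adjusted p = 8.66e-07) at 3 µM. The rise of 0.59 at 0.3 µM (adjusted p = 0.0294 in limma) was lost without vehicle replicate 1 (0.66), vehicle replicate 2 (0.52) or decitabine replicate 1 (0.44), and with no filter on dim signal (adjusted p = 0.0517). Azacitidine arrays of H1299 overlapped vehicle at 0.3 and 1 µM, and the difference at 3 µM was -0.16 (95% interval -0.54 to 0.22). In A549, CXCL1 went from 201 and 176 with vehicle to 126 and 84.7 with 3 µM of azacitidine. It fell by 0.69 (SE 0.18, adjusted p = 0.00488), a call lost without azacitidine replicate 2 (-0.47, adjusted p = 0.101). All 6 decitabine arrays of A549 were below both vehicle arrays, with differences of -0.46, -0.43 and -0.19 that did not pass.

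CXCL5, a neutrophil attractant made by epithelial cells, was far brighter in A549 than in H1299 and rose with decitabine in H1299. There it read 11.3 and 26.4 with vehicle and 69.8 and 91.7, 116 and 146 and 111 and 116 with rising doses of decitabine. Every decitabine array lay above both vehicle arrays. CXCL5 rose by 1.16, 1.69 and 1.53 (SE 0.17 each), with adjusted p-values in limma of 3.87e-05, 1.36e-07 and 3.76e-07. With azacitidine the 6 arrays of H1299 read between 8.29 and 25.6, overlapping vehicle at each dose. In A549, the fall of 0.46 with 3 µM of decitabine, from 3288 and 3048 to 2147 and 2459, passed narrowly (adjusted p = 0.0456 in limma) and was lost in 19 of 39 alternatives, to -0.31 without the 3 arrays. A second CXCL5 probe set that passed the filter gave -0.06 for that comparison. The second set rose by 0.86 with 3 µM of decitabine in H1299, and the third set was dim in both lines, at most 80.9.

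CXCL3 and CXCL8 had 1 call between them against vehicle. CXCL3 read 68.6 and 53.2 with vehicle in A549 and 145 and 104 with 3 µM of azacitidine, and rose by 0.74 (SE 0.21, adjusted p = 0.00884). Without vehicle replicate 2 it did not pass (0.62, adjusted p = 0.0801), and the gene left the test when either of the 2 arrays on which it passed the filter was left out. In H1299 CXCL3 stayed between 25.1 and 60.8 on all 14 arrays with no call against vehicle. CXCL8, a potent neutrophil attractant, read 186 and 177 with vehicle in A549 and between 86.8 and 171 on the 12 treated arrays, each of which was below both vehicle arrays. None of the 6 differences passed. The largest was -0.64 at 0.3 µM of azacitidine (95% interval -1.10 to -0.19, adjusted p = 0.129 in limma). In H1299 CXCL8 lay between 8.71 and 27.6, about the 25th percentile of the arrays, and none of its 6 differences from vehicle passed. A fall from that level was not detectable at this signal, while a rise like that of CXCL5 or LIF from similar signals was not seen. Its second probe set was dim, at most 49.0 in A549 and 6.38 in H1299, and did not pass the filter. In A549 the 2 sets disagreed in direction with decitabine. The second read 7.31 and 15.9 with vehicle and between 20.3 and 49.0 on the decitabine arrays. With azacitidine it read 3.68 and 9.19 at 0.3 µM, 13.3 and 19.5 at 1 µM and 22.7 and 23.2 at 3 µM.

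**Figure D3:**
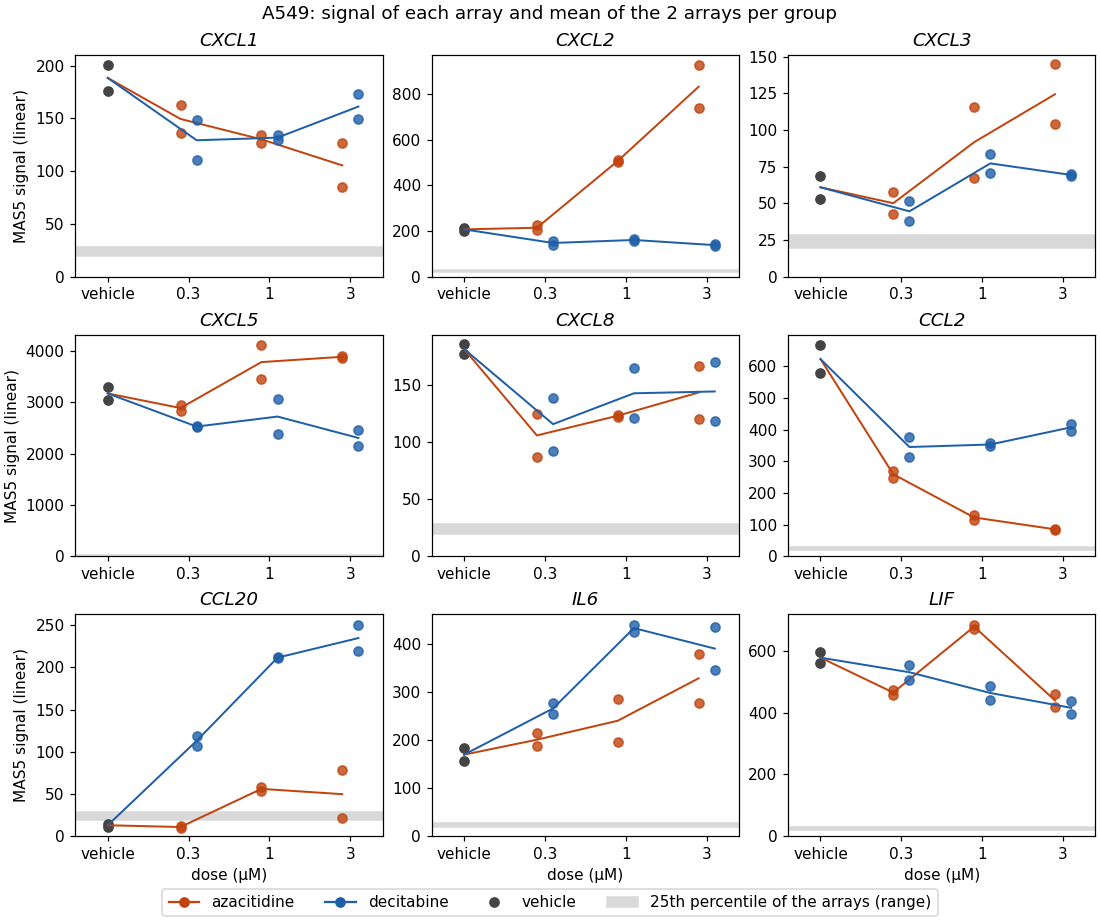
Signals of the 9 genes in A549, linear MAS5 signal on the vertical axis and vehicle or dose (µM) on the horizontal axis; points are single arrays, lines join the means of 2 arrays, and the grey band is the range of the 25th percentile of the A549 arrays. CXCL2 separates upward with azacitidine, reaching 737 and 925, CCL2 falls with both drugs, and CCL20 and IL6 rise with decitabine.

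CCL2, the monocyte attractant, fell in A549 at every dose of both drugs and further with azacitidine. The vehicle arrays read 578 and 667. Azacitidine gave 249 and 269.8 at 0.3 µM, 114 and 132 at 1 µM and 87.9 and 83.3 at 3 µM, and decitabine gave 378 and 313, 357 and 349.5 and 397 and 418 at the same doses. No treated array reached the vehicle arrays, and the azacitidine groups did not overlap each other. With azacitidine CCL2 fell by 1.17, 2.08 and 2.47 (SE 0.17 each), with adjusted p-values in limma of 0.000521, 1.29e-08 and 4.7e-10. Decitabine lowered it by 0.80, 0.76 and 0.57, with adjusted p-values of 0.00402, 0.00295 and 0.0142. The call at 3 µM of decitabine was lost without vehicle replicate 2 (-0.47), without decitabine replicate 1 (-0.54) and without the 3 arrays (-0.64), and that at 0.3 µM without decitabine replicate 2 (-0.67). All 3 decitabine calls and that at 0.3 µM of azacitidine were also lost when 1 instead of 32 was added to the signal. In H1299 CCL2 lay under the 25th percentile on all 14 arrays, from 0.732 to 17.1, so a fall could not be seen there. No rise was called with all arrays. The 0.25 at 1 µM of decitabine became 0.53 and passed without decitabine replicate 1 (adjusted p = 0.0427 in limma), leaving replicate 2, which reads the 17.1, and so did azacitidine minus decitabine at that dose (-0.56). In bulk RNA, fewer expressing cells and less RNA per cell cannot be told apart.

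CCL20, the CCR6 ligand, showed the largest rise of the 9 genes with decitabine in both lines. In A549 it read 15.0 and 11.1 with vehicle, 119 and 107 at 0.3 µM of decitabine, 212 and 211 at 1 µM and 219 and 251 at 3 µM. In H1299 it read 6.22 and 5.90 with vehicle, then 128.2 and 143, 235 and 251 and 363 and 308. Every decitabine array was far above its vehicle arrays. CCL20 rose by 1.69, 2.44 and 2.57 in A549 and by 2.14, 2.85 and 3.27 in H1299 (SE 0.22 each). The adjusted p-values in limma ran from 2.88e-10 at 3 µM in H1299 to 2.72e-05 at 0.3 µM in A549. The filter on dim signal favoured these rises, because CCL20 passed it on 11 arrays, all with decitabine. The size depends on the constant added, because the vehicle signals lay below the 25th percentile: at 3 µM it was 1.36 with a constant 4 times as large and 4.08 with 1 added in A549, and 1.79 and 5.57 in H1299.

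With azacitidine, CCL20 rose in A549 at the higher doses. The arrays read 9.79 and 12 at 0.3 µM, 53.4 and 58.8 at 1 µM and 21.7 and 78.0 at 3 µM, so the 2 arrays at 3 µM disagreed. CCL20 rose by 0.97 (SE 0.22, adjusted p = 0.00242) at 1 µM. The rise of 0.77 at 3 µM (adjusted p = 0.00759 in limma) was lost without azacitidine replicate 2 (0.26, adjusted p = 0.315) or vehicle replicate 2 (0.71, adjusted p = 0.0524). In H1299 the 6 azacitidine arrays read between 2.40 and 10.02, below the 25th percentile of every array. The difference at 3 µM was -0.10 (95% interval -0.56 to 0.35), which did not pass.

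Of the IL6-family cytokines, IL6 rose in A549 and LIF in H1299. IL6, the acute-phase cytokine, read 183 and 156 with vehicle in A549 and 278 and 254, 426 and 440.1 and 435 and 346 with rising doses of decitabine. With azacitidine it read 187 and 215, 285 and 195 and 379.7 and 277. All 12 treated arrays were above both vehicle arrays. IL6 rose by 1.21 (SE 0.21, adjusted p = 0.000489) at 1 µM and rose by 1.06 (SE 0.21, adjusted p = 0.000897) at 3 µM of decitabine, and the 0.56 at 0.3 µM did not pass (adjusted p = 0.113). It rose by 0.83 (SE 0.21, adjusted p = 0.00417) at 3 µM of azacitidine, a call lost without azacitidine replicate 1 (0.62) and without the 3 arrays (0.72). In H1299 IL6 lay below the array median throughout, from 26.4 to 63.3. None of its 6 differences from vehicle passed, the farthest from 0 being -0.44 at 0.3 µM of decitabine (95% interval -0.88 to 0.01).

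LIF, which shares the IL6ST chain, read 9.21 and 24.99 with vehicle in H1299. Decitabine gave 60.2 and 90.1 at 0.3 µM, 101 and 102 at 1 µM and 107 and 116 at 3 µM, all above vehicle. LIF rose by 1.13, 1.46 and 1.56 (SE 0.19 each), with adjusted p-values in limma of 0.000309, 9.43e-06 and 2.59e-06. With azacitidine the middle dose alone stood out among the 3, at 85.2 and 50.5 against 26.0 and 5.37 at 0.3 µM and 9.002 and 14.6 at 3 µM. LIF rose by 1.02 (SE 0.19, adjusted p = 0.000317) at 1 µM and overlapped vehicle at the other doses. In A549 LIF was bright on every array, from 394 to 684. Its differences from vehicle ran from -0.45 to 0.22 over the 6 groups, and none passed. In a fit of A549 alone, LIF was called lower at 3 µM of both azacitidine (-0.37, adjusted p = 0.00947) and decitabine (-0.45, adjusted p = 0.00537), as it was with a constant 4 times as large.

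**Figure D4:**
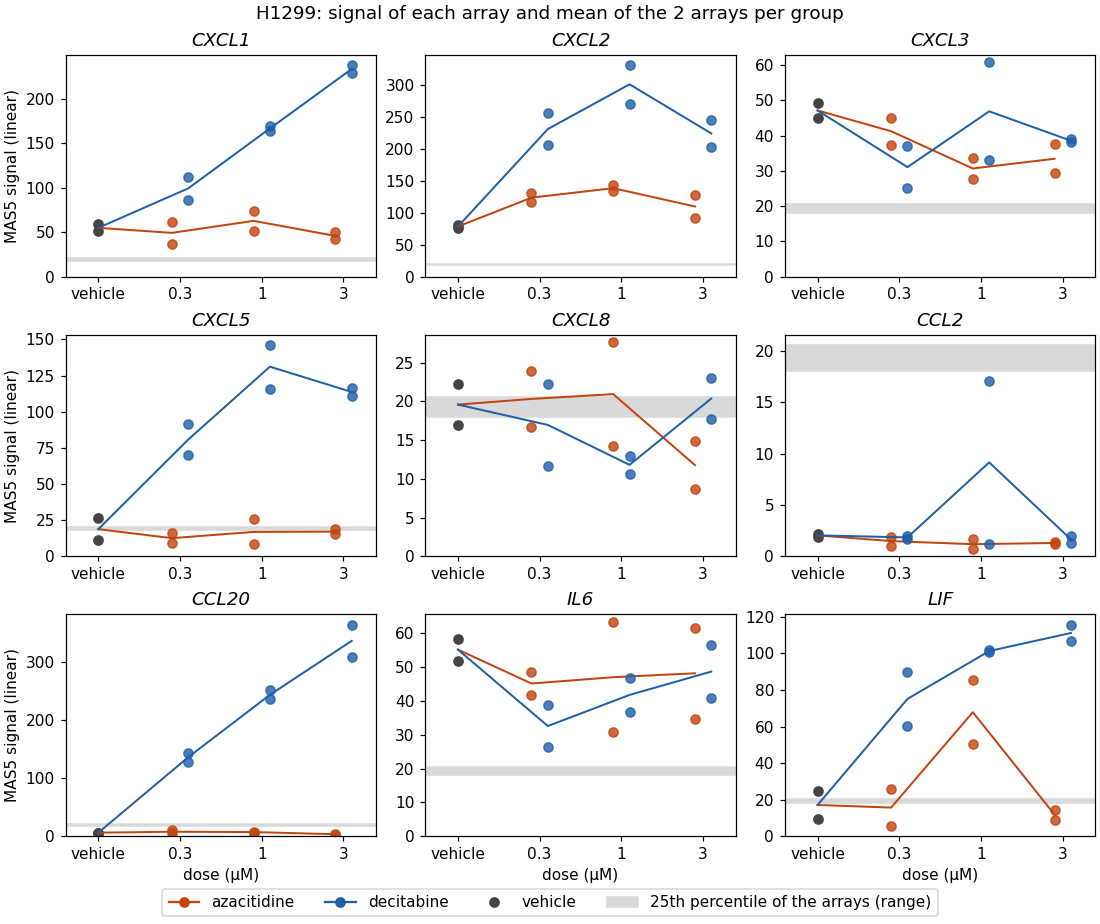
Signals of the 9 genes in H1299, linear MAS5 signal on the vertical axis and vehicle or dose (µM) on the horizontal axis; points are single arrays, lines join the means of 2 arrays, and the grey band is the range of the 25th percentile of the H1299 arrays. CXCL1, CXCL2, CXCL5, CCL20 and LIF separate upward with decitabine, CCL2 and CXCL8 stay at or near the band or under it, and vertical scales differ between panels.

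The drugs were then set against each other directly at the 6 matched pairs of dose and line, which do not involve the vehicle arrays. In H1299, decitabine arrays exceeded azacitidine arrays for CXCL1, CXCL2, CXCL5, CCL20 and LIF at each dose. CCL20 passed the filter on dim signal only on decitabine arrays, which favoured such a difference. In that line 5, 4 and 5 of the 9 genes differed at 0.3, 1 and 3 µM, where 6.39%, 34% and 56.3% of all genes did. Azacitidine minus decitabine at 3 µM was -3.37 for CCL20 (SE 0.22), -1.77 for CXCL1 (SE 0.18), -1.71 for LIF (SE 0.19), -1.57 for CXCL5 (SE 0.17) and -0.86 for CXCL2 (SE 0.14). The largest of their adjusted p-values in limma was 3.38e-05. LIF at 1 µM was the exception among the 15 values of these genes, at -0.44 (95% interval -0.84 to -0.04, adjusted p = 0.0868), and it passed without azacitidine replicate 1 (-0.69, adjusted p = 0.0254). At 0.3 µM the call of CXCL1 (-0.70) was lost without replicate 1 of azacitidine (-0.48) or decitabine (-0.56), and that of CXCL2 (-0.75) without decitabine replicate 1 (-0.61). Averaged over the 3 doses, 5 genes differed, against 54% of all genes.

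In A549 the differences between the drugs ran both ways. At 0.3 µM 1 gene differed, at 1 µM 6 and at 3 µM 6, where 5.7%, 34.3% and 50.4% of all genes did, and 5 differed over the doses, against 54.4%. CXCL2 was higher with azacitidine by 1.48 at 1 µM and 2.34 at 3 µM (SE 0.14, adjusted p = 5.3e-11 in limma). At 0.3 µM its difference of 0.46 did not pass (adjusted p = 0.0703), although the arrays did not overlap. CCL20 was lower with azacitidine at all 3 doses, by 1.76, 1.47 and 1.79 on the log2 scale, with no overlap. The filter on dim signal favoured this, because CCL20 passed it only on decitabine arrays, and CXCL3 only on azacitidine arrays. CCL2 was lower with azacitidine by 1.32 at 1 µM and 1.90 at 3 µM, and its -0.37 at 0.3 µM did not pass. Its call at 1 µM was lost with 1 in place of 32 added (-1.52). Differences of 0.75 for CXCL5, 0.61 for CXCL3 and -0.50 for CXCL1 at 3 µM passed, with adjusted p-values of 0.000745, 0.0216 and 0.0272 in limma. The CXCL5 and CXCL1 calls were lost without the 3 arrays (0.64 and -0.64). Leaving out azacitidine replicate 2 ended that of CXCL1 as well (-0.28), decitabine replicate 1 those of CXCL1 (-0.42) and CXCL3 (0.62), and decitabine replicate 2 that of CXCL3 (0.60). CXCL5 also passed at 1 µM, at 0.48, but not without azacitidine replicate 1 (0.35) or decitabine replicate 2 (0.29). That call too was lost with 1 added (0.48), as were those of CXCL5 (0.76), CXCL3 (0.81) and CXCL1 (-0.63) at 3 µM. The second CXCL5 set read 579 and 621 with azacitidine and 490 and 477 with decitabine at 3 µM.

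IL6 was lower with azacitidine than with decitabine in A549 over the doses, at -0.46 (adjusted p = 0.00339 in limma). At 1 µM it stood at -0.79 (adjusted p = 0.00656, not passed at -0.55 without azacitidine replicate 2), and its differences at 0.3 and 3 µM were -0.36 (95% interval -0.80 to 0.09) and -0.24 (interval -0.68 to 0.21). LIF stood at 0.52 at 1 µM (adjusted p = 0.0426), a call lost in 9 alternatives (0.46 to 0.58), among them those without the 3 arrays and without any 1 of the 4 arrays compared. For CXCL8 in A549 the 95% interval at 3 µM was -0.45 to 0.45, which does not show that the drugs act alike on it. Over the 3 doses its interval was -0.35 to 0.17. In H1299 the intervals over the doses were -0.32 to 0.19 for CXCL3, -0.15 to 0.36 for IL6, -0.30 to 0.09 for CCL2 and -0.23 to 0.29 for CXCL8, none of which passed.

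**Figure D5:**
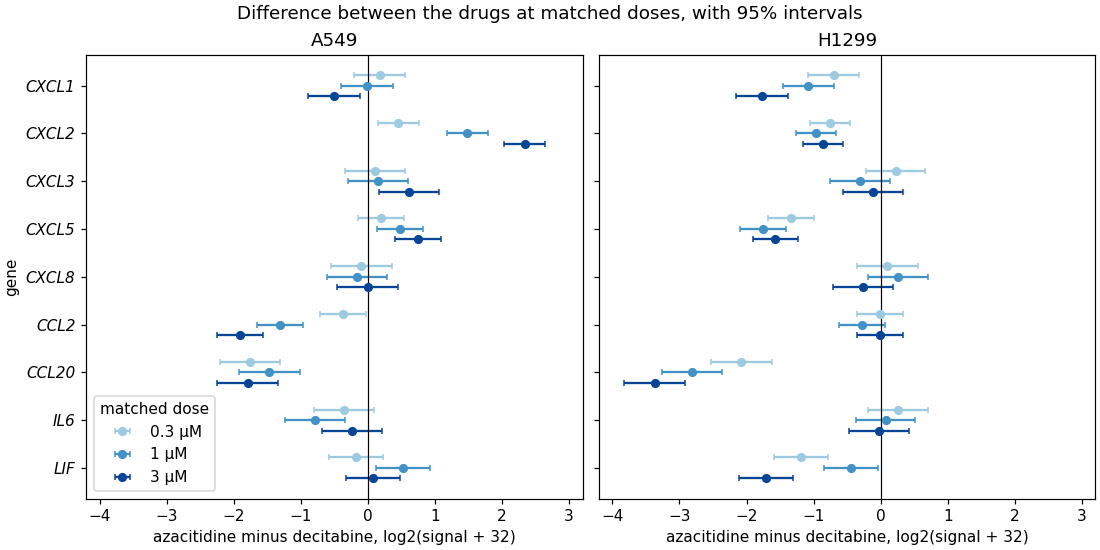
Azacitidine minus decitabine on log2(signal + 32) for the 9 genes at the 3 matched doses in A549 (left) and H1299 (right), with 95% intervals from limma; values right of 0 are higher with azacitidine. CXCL2 lies right of 0 in A549 and left of 0 in H1299 at all doses, and CCL20 lies left of 0 in both lines.

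Dose was examined as 3 µM minus 0.3 µM, which also leaves out the vehicle arrays. With azacitidine in A549, 5 genes differed between these doses, against 34.4% of all genes. CXCL2 was higher by 1.80, CXCL3 by 0.92, CCL20 by 0.84 and IL6 by 0.62, while CCL2 was lower by 1.31 on the log2 scale. The filter on dim signal favoured the CXCL3 difference, because CXCL3 passed it on 2 arrays, at 1 and 3 µM of azacitidine in A549. The CCL20 call rested on azacitidine 3 µM replicate 2 (0.33 without it), and that of IL6 was lost in 8 alternatives (0.41 to 0.71), among them those without the 3 arrays (0.41), without either 0.3 µM array or without 3 µM replicate 1. In H1299 azacitidine gave 0 calls in limma at an adjusted p of 0.05 among these genes, where 55.5% of all genes differed. None of the 9 had an unadjusted p under 0.05 there. CCL2, CCL20 and CXCL5 lay under the 25th percentile of the arrays at both doses, so a fall was not detectable in them. CXCL8 and LIF lay under it on 1 array at 0.3 µM and on both arrays at 3 µM. Decitabine gave 1 call in A549, CCL20 at 0.88 (adjusted p = 0.0134 in limma), against 8.87% of all genes, and that call was lost without any 1 of the 4 arrays compared (0.79 to 1.05 over all 6 alternatives that ended it). In H1299 it gave 2, CCL20 at 1.13 and CXCL1 at 1.02, against 9.93%. CCL20 passed the filter on dim signal only on decitabine arrays, though of each dose. CXCL2, CXCL5 and LIF, already higher at 0.3 µM of decitabine in H1299, differed between 3 and 0.3 µM by -0.04, 0.38 and 0.43, none past the threshold.

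Whether the lines responded differently was tested as an interaction. The response to 3 µM of azacitidine differed between lines for 5 of the 9 genes (31.4% of all genes), and that to 3 µM of decitabine for 5 (17.3% of all genes). The difference between the drugs over doses itself differed between lines for 7 (40.7% of all genes). With decitabine, the response of A549 minus that of H1299 was -1.80 for CXCL1, -1.70 for CXCL2, -1.99 for CXCL5 and -2.01 for LIF (adjusted p from 4.36e-06 to 5.41e-05 in limma). IL6 went the other way at 1.18 (adjusted p = 0.00956), a call lost without A549 decitabine replicate 1 (1.03) and without the 3 arrays (1.12). For CCL20, high in both lines, the -0.70 did not pass (95% interval -1.34 to -0.06). With azacitidine, CCL2 gave -2.44, CXCL2 1.495, CXCL3 1.02, IL6 0.97 and CCL20 0.88. The calls of CCL20, IL6 and CXCL3 were lost in 9, 6 and 2 alternatives, with values of 0.35 to 0.94, 0.72 to 1.18 and 0.90 to 0.93 there, and all 3 were lost without A549 vehicle replicate 2. That of IL6 was also lost without the 3 arrays (0.86). CXCL3 left the test there and without either of the 2 A549 azacitidine arrays on which it passed the filter. The filter on dim signal thus favoured its interaction. The value of CCL2 rests on a line in which its signal was under the 25th percentile throughout. CXCL2 had the largest interaction of the drug difference, 2.28 (SE 0.12, adjusted p = 5.91e-12).

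How the genes moved with each other and with the rest of the array is described over the 14 group means after subtracting the mean of each line. These means share arrays, scaling and vehicle groups, so correlations carry no p. Over both lines Pearson's r was 0.81 between CXCL1 and CXCL5, 0.81 between CXCL1 and LIF and 0.82 between CXCL5 and LIF. Over the 7 group means of H1299 the values were 0.94, 0.88 and 0.85, and over those of A549 -0.41, 0.14 and 0.46. CCL20 and CXCL1 stood at 0.72 over both lines, 0.97 in H1299 and -0.19 in A549. CXCL2 and CXCL5 stood at 0.72, 0.91 in H1299 and 0.93 in A549. CXCL1 and CXCL2, whose printed promoters share the run of 23 bases, stood at 0.27 over both, 0.83 in H1299 and -0.62 in A549. CCL2 and CXCL2 stood at -0.89 in A549, where CCL2 was bright. IL6 and LIF, ligands of 1 receptor chain, stood at -0.29 over both. The genes most like CCL20 among all tested were CNOT1 (0.97), COX7A1 (0.96) and KCNV2 (0.96). Those most like CXCL1 were IGFBP3 (0.95), PLCB4 (0.94) and NABP1 (0.94), those most like CXCL5 PLK2 (0.94), FKBP11 (0.93) and B3GALNT1 (0.91), and those most like CXCL2 ZNF26 (0.95), EIF3J (0.93) and RRP12 (0.92). For CCL2 they were DOK4 (0.94), HPGD (0.94) and NR5A2 (0.94), for IL6 DENND2D (0.91), ACTC1 (0.85) and C2CD2L (0.85) and for LIF TRAF3IP2 (0.91), ZIC1 (0.90) and DRC9 (0.88). CXCL3 had ITGA2 (0.91), CCNH (0.84) and SLC25A37 (0.83), and CXCL8 had lower values, CEACAM4 (0.83), PML (0.78) and TMEM51 (0.78).

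Other genes of the pathway are given from lists chosen by function, beside the median of all genes tested (-0.0111 for 3 µM of decitabine and 0.079 for 3 µM of azacitidine in H1299, 0.00901 and 0.0579 in A549) and the share of all genes called (30.9% and 53.9% in H1299, 25.8% and 38.3% in A549, in the same order). Of 12 NF-kB subunits and regulators tested, 6 rose and 0 fell with 3 µM of decitabine in H1299 (list median 0.30). RELB, a subunit of the noncanonical pathway, rose by 0.81, TNFAIP3, a deubiquitinase that dampens the pathway, by 0.78, and NFKBIA, the inhibitor IkBa, by 0.72. With 3 µM of azacitidine in that line 6 also rose (median 0.45), led by RELA at 1.27, TNFAIP3 at 1.17 and the kinase IKBKB at 0.81. In A549, azacitidine at 3 µM raised 4 and lowered 1 (median 0.23), with RELB at 0.75, RELA at 0.74 and NFKBIA at -0.69. Decitabine raised 3 and lowered 1 (median 0.15), with NFKBIA at 0.50 and NFKB2 at -0.66. The 6 of 12 called with azacitidine in H1299 and the counts in A549 are near the shares of all genes.

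Of 12 other NF-kB target genes, 5 rose and 0 fell with 3 µM of decitabine in H1299 (median 0.28, 30.9% of all genes called). IER3, an early response gene, rose by 1.35, the adhesion molecule ICAM1 by 1.14 and PTGS2, which makes prostaglandins, by 0.74. Decitabine in A549 raised 5 and lowered 0 (median 0.29, 25.8% of all), ICAM1 by 0.70 and IER3 by 0.53. Azacitidine lowered 6 and raised 1 in A549 (median -0.14, 38.3% of all), with PTGS2 at -1.77, TNFAIP2 at -0.91 and the protease PLAU at -0.64. In H1299 it raised 5 and lowered 4 (median 0.18, 53.9% of all), with PLAU at -2.99 and IER3 at -0.998. Over the doses, 7 of the 12 were lower and 1 higher with azacitidine than with decitabine in H1299, and 7 lower and 0 higher in A549, where 54% and 54.4% of all genes were called.

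Of 9 C/EBP and AP-1 factors, 7 rose and 1 fell with 3 µM of azacitidine in H1299 (median 0.86, 53.9% of all genes called). ATF3, a stress-induced factor, rose by 3.14, CEBPB by 2.09 and JUN by 1.52. With decitabine at 3 µM, 5 rose and 1 fell (median 0.18, 30.9% of all), with FOS at 2.13, JUNB at 1.37 and FOSL1 at -1.57. In A549, azacitidine raised 5 and lowered 2 (38.3% of all), with ATF3 at 2.75. Decitabine raised 2 and lowered 1 (25.8% of all), with ATF3 at 1.45. Among 7 mRNA decay and stability factors, 4 fell and 1 rose with azacitidine in H1299 (median -0.44, 53.9% of all), HNRNPD by 1.31 and ZFP36L1 by 0.91. ZFP36L2, which promotes decay, rose by 0.61 with decitabine in A549, where 1 of 7 rose and 2 fell (25.8% of all).

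Of the receptors, 5 of 11 passed the filter. The shares of all genes called were 30.9% and 53.9% with 3 µM of decitabine and azacitidine in H1299 and 25.8% and 38.3% in A549. IL6ST, the chain shared by IL6 and LIF, rose by 0.48 with 3 µM of decitabine in H1299, the only call of the 5 there, and fell by 0.31 in A549. In A549 decitabine also lowered ACKR3, a scavenging chemokine receptor, by 1.01 and CXCR4 by 0.68, while 3 µM of azacitidine changed 0 of the 5 in either direction past the threshold in A549. Of 10 genes of JAK and STAT3 signalling, 2 rose and 1 fell with decitabine in A549, SOCS2, a feedback inhibitor, by 0.72 and STAT3 by 0.51. In H1299 2 rose and 0 fell, SOCS2 by 1.20. With 3 µM of azacitidine 3 rose and 1 fell in A549, SOCS3 at 0.72, SOCS2 at 0.51 and STAT3 at -0.43. In H1299 1 rose and 3 fell, SOCS2 at 0.94, PIM1 at -0.61 and STAT3 at -0.34.

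Among 23 other cytokines, 7 were bright enough to test, and 5 of them rose and 1 fell with 3 µM of decitabine in H1299 (median 0.74, 30.9% of all genes called). IL32, a proinflammatory cytokine, rose by 2.58, IL23A, a subunit of IL-23, by 2.21 and IL11, which also uses IL6ST, by 0.99. In A549 decitabine lowered IL11 by 1.02 and raised IL32 by 0.52, the 2 calls of the 7 (25.8% of all). Of 27 other chemokines, 22 were on the array and PF4 alone of these passed the filter. No probe set of the other 21 exceeded the array median on more than 1 array. PF4 rose by 1.18 with 3 µM of decitabine in H1299, while its differences of 0.6 at 0.3 µM and 0.135 at 1 µM did not pass. Of 6 epithelial markers, 3 rose in A549 and 5 in H1299 with 3 µM of decitabine and none fell (25.8% and 30.9% of all genes called). With 3 µM of azacitidine 4 fell in A549 and 1 in H1299 and none rose (38.3% and 53.9% of all). The share of these markers called with azacitidine in H1299 was thus below that of all genes. With 3 µM of decitabine EPCAM rose by 2.31 and KRT19 by 2.08 in A549 and by 2.51 and 2.35 in H1299, while 3 µM of azacitidine lowered CDH1 by 1.47 and KRT19 by 1.21 in A549. ITGAM, the 1 leukocyte marker tested, rose by 0.65 in A549 and 0.56 in H1299 with 3 µM of decitabine. The part of these markers in the cytokine values was not tested.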

How the data were processed

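RNA from 28 samples was measured on arrays. The authors deposited MAS5 signal, a linear intensity per probe set, per the labels and the submitters' processing notes; the scaling target is not given in the sources used here. Probe sets naming 1 gene were kept if above the median of the array on 2 or more arrays, and each of 8024 genes was represented by its brightest kept set. Signals were taken as log2(signal + 32). All 28 arrays entered 1 model of group means (limma 3.58.1 in R 4.3.3; 14 residual degrees of freedom, eBayes with trend, two-sided, Benjamini-Hochberg at 0.05) for 28 comparisons. Intervals cover 95%, and the number of arrays limits the precision. The procedure was tested on simulated data. Promoters were read with Python 3.11.15 and pandas 2.3.3, and figures drawn with matplotlib 3.10.9.

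The genes and lists were chosen with earlier results of these data known. The rule for named genes took all 9 genes in every comparison, of each other list its counts and at most 3 of its largest called changes per comparison, and for each gene the 3 genes with the most similar group means. Alternatives were quantile normalization, median centring, pseudocounts of 1 and of 4 times 32, no filter, a 75th percentile filter, all kept probe sets, 1 line alone, eBayes without trend, the replicate number as a block, each array left out in turn, and, chosen after seeing the data, 3 arrays left out together. No label says that replicate numbers pair the samples, and the model did not pair them. Probe sets ending in _x_at can bind related transcripts, and such sets represent CXCL2, CXCL5 and CXCL8.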

Additional observations from a re-analysis of the deposited data

Results flagged for a closer look

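The effects of the drugs differed between the 2 lines in an interaction test for several of these genes (limma, adjusted p at most 0.05, values on the log2(signal + 32) scale, A549 minus H1299). For the response to 3 µM of decitabine the differences were CXCL1 -1.80, CXCL2 -1.70, CXCL5 -1.99, IL6 1.18 and LIF -2.01. For 3 µM of azacitidine they were CXCL2 1.495, CXCL3 1.02, CCL2 -2.44, CCL20 0.88 and IL6 0.97. For azacitidine minus decitabine over the doses they were CXCL1 1.07, CXCL2 2.28, CXCL5 2.02, CCL2 -1.09, CCL20 1.08, IL6 -0.56 and LIF 1.25. CXCL2 and IL6 passed in all 3 with all arrays and settings as described. The adjusted p-values of all these differences ran from 5.91e-12 to 0.0347. The calls of CCL20, IL6 and CXCL3 for azacitidine were lost in 9, 6 and 2 alternatives, that of IL6 for decitabine in 2, and that of CCL2 for the drug difference with 1 in place of 32 added (-0.73, adjusted p = 0.284). CXCL3 also left the test without the 3 arrays and without either of the 2 A549 azacitidine arrays on which it passed the filter. The filter on dim signal thus favoured its interaction. CCL2 was under the 25th percentile on every H1299 array, and its change with 3 µM of azacitidine in A549 alone was -2.47.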

How the results depend on the processing

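Of 108 called differences of single genes, 75 kept their call in all 39 alternatives that could test them. Of 144 uncalled ones, 126 stayed uncalled, and no called difference changed sign. The setting that ended most calls was 1 added in place of 32, with 18 of the 108 lost. The count of called genes moved by more than 1.5 times in these cases (doses in µM). With 1 added in place of 32 it went from 1 to 0 for A549 azacitidine 0.3, A549 decitabine 3 minus 0.3, from 2 to 1 for A549 decitabine 0.3, H1299 decitabine 3 minus 0.3, from 5 to 3 for A549 decitabine 3, A549 azacitidine 3 minus 0.3, from 6 to 3 for A549 drug difference 1, A549 drug difference 3. With 4 times 32 added it went from 1 to 0 for H1299 azacitidine 0.3, H1299 azacitidine 3, from 1 to 2 for A549 drug difference 0.3. The 75th percentile filter left 4 of the 9 genes to test, and the count went from 6 to 2 for A549 azacitidine 3, from 2 to 1 for A549 decitabine 0.3, from 3 to 1 for A549 decitabine 1, from 5 to 3 for A549 decitabine 3, H1299 decitabine 0.3, H1299 decitabine 1, H1299 decitabine 3, A549 drug difference over doses, H1299 drug difference 0.3, H1299 drug difference 3, H1299 drug difference over doses, A549 azacitidine 3 minus 0.3, the line difference in response to decitabine 3, from 1 to 0 for A549 drug difference 0.3, A549 decitabine 3 minus 0.3, from 6 to 3 for A549 drug difference 3, from 4 to 2 for H1299 drug difference 1, from 2 to 0 for H1299 decitabine 3 minus 0.3, from 5 to 2 for the line difference in response to azacitidine 3, from 7 to 4 for the line difference of the drug difference, the lines in vehicle. Without any filter it went from 1 to 0 for H1299 azacitidine 0.3, H1299 azacitidine 3, with all kept probe sets from 1 to 0 for H1299 azacitidine 0.3, in a fit of 1 line alone from 1 to 0 for H1299 azacitidine 0.3, H1299 azacitidine 3, A549 decitabine 3 minus 0.3, with quantile normalization from 1 to 2 for A549 drug difference 0.3, with median centring from 1 to 0 for H1299 azacitidine 3, and without the 3 arrays from 5 to 2 for A549 decitabine 3, from 1 to 0 for H1299 azacitidine 0.3, from 6 to 3 for A549 drug difference 3, from 5 to 3 for the line difference in response to azacitidine 3. Leaving out single arrays gave ranges of 1 to 2 (all arrays 2) for A549 decitabine 0.3; 2 to 5 (all arrays 5) for A549 decitabine 3; 0 to 1 (all arrays 1) for H1299 azacitidine 0.3; 0 to 1 (all arrays 1) for H1299 azacitidine 3; 3 to 5 (all arrays 5) for H1299 drug difference 0.3; 0 to 1 (all arrays 1) for A549 decitabine 3 minus 0.3; 2 to 5 (all arrays 5) for the line difference in response to azacitidine 3. Under median centring the all-gene median for 1 µM of azacitidine in A549 was 0.125 in place of -0.00894. With the replicate block, the fall of CXCL5 with 3 µM of decitabine in A549 lost its call (-0.46, adjusted p = 0.0506), CXCL3 gained one for the drug difference over doses in A549 (0.29, adjusted p = 0.0475), and no other call changed. Deviations of same-numbered arrays correlated from -0.245 to 0.266 in A549 and from -0.0784 to 0.156 in H1299 over 21 pairs of groups each. The value was above 0.1 in 9 pairs of A549 and 3 of H1299. No consistent pairing by number was seen, but this check cannot settle whether the arrays were paired. Dim signal limits CCL2 and CXCL8 in H1299, and CCL20 in vehicle.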
